A study of Saccharomyces cerevisiae with 9 samples.

Results

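The genes of sulfur and methionine metabolism were followed in budding yeast exposed to NaCl, in 3 strains that differ in the carboxyl-terminal domain (CTD) of Rpb1, the largest subunit of RNA polymerase II. The 35 genes were chosen by their known roles, from sulfate uptake to the regulators of the pathway. The rule uses no measured value, but earlier results of these data were known when the genes were chosen. All 35 are among the 6868 features of the arrays. Of these genes, 31 had a value on all 9 arrays and could be tested with the 5645 features that did so, while SUL1, MET8, STR3 and MET32 lacked a value on S2A replicate 1, and SUL1 also on S5A replicate 1.

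All strains lack the endogenous RPB1 gene and express RPB1 from a plasmid. The wild-type strain (labelled CTD14) carries 14 unmutated CTD repeats. The S2A strain (CTD2A) and the S5A strain (CTD5A) carry chimeric domains. In these, repeats with serine 2 or serine 5 changed to alanine are followed by unmutated repeats, so neither mutant lacks the serine altogether. Both mutants have fewer unmutated repeats than the wild-type strain, and the S5A domain is the shortest. The design cannot tell these differences apart from the serine change. Cells grown in rich YPD medium at 30 °C were sampled before and 30 min after NaCl was added to 0.7 M, and each of the 9 arrays, 3 per strain, compared a salt-treated sample with the unstressed sample of its own strain.

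Yeast can build methionine and cysteine from inorganic sulfate. Sulfate is taken up, activated, reduced to sulfide and joined to a carbon chain derived from aspartate to give homocysteine, which is methylated to methionine or turned into cysteine. Methionine is used for protein synthesis and for S-adenosylmethionine, the cell's main methyl donor, and most genes of the pathway are driven by the activator Met4 with its DNA-binding partners and restrained by the ubiquitin ligase subunit Met30. Rich medium already contains sulfur amino acids, and the pathway is then usually little active.

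Values are log2 ratios of salt-treated over unstressed cells, so that 1 is a doubling, and ± gives the SD over 3 arrays unless another n is stated. A response was called at a Benjamini-Hochberg adjusted p below 0.05 in limma, over all 5645 features, and a difference between strains at or below 0.025. Storey's q-value, a less strict adjustment, called more responses, and the genes it added are named in the last paragraph. The labels do not say whether arrays of a strain came from separate cultures, and p-values then measure only the spread between these arrays. The direction of the ratios was checked on 5 salt-induced genes outside the pathway (GPD1, HSP12, CTT1, STL1 and GRE2), whose wild-type means ran from 5.24 to 8.47, and on 137 ribosomal protein genes, with a wild-type median of -1.02. Arrays of a strain correlated across features at 0.898 to 0.958. S2A replicate 1 was the highest of its strain for 21 of 31 genes (48.9% of all features) and S2A replicate 2 for 0 (17.2%). S5A replicate 1 was the highest of its strain for 18 (46.9%), and also for MET8, STR3 and MET32. Wild-type replicates 1 and 2 were each the highest for 15 (37.7% and 40.9%) and replicate 3 for 1 (21.45%). Wild-type replicate 2 was the highest of its strain for all 4 permease genes.

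In wild-type cells 3 of the 31 genes rose and 14 fell after NaCl, while over all features 32.3% rose and 38.3% fell. The genes that rose were MET13, MET28 and MET2. The median response was -0.27, against -0.06 over all features. Of the S2A responses 2 were rises and 15 were falls, where 31.6% and 37.1% of all features did, and the median was -0.39 against -0.04. In S5A 1 gene rose and 15 fell, where 28.9% and 34.2% of all features did, and the median was -0.38 against -0.07. The share of genes that fell was 45.2% in wild-type, 48.4% in S2A and 48.4% in S5A, somewhat above the share among all features. In each strain a smaller share rose than among all features. Whether these shares differ was not tested. The same 12 genes fell in all 3 strains (MET10, MET22, MET17, HOM3, MET6, MET12, SAM1, SAM2, SAH1, CYS3, CYS4 and SAM3) and MET13 rose in all 3. No gene was called in opposite directions by the Benjamini-Hochberg p-values. With Storey's q-value in their place, MET3 was called higher in wild-type (0.24) and lower in S5A (-0.22).

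**Figure D1:**
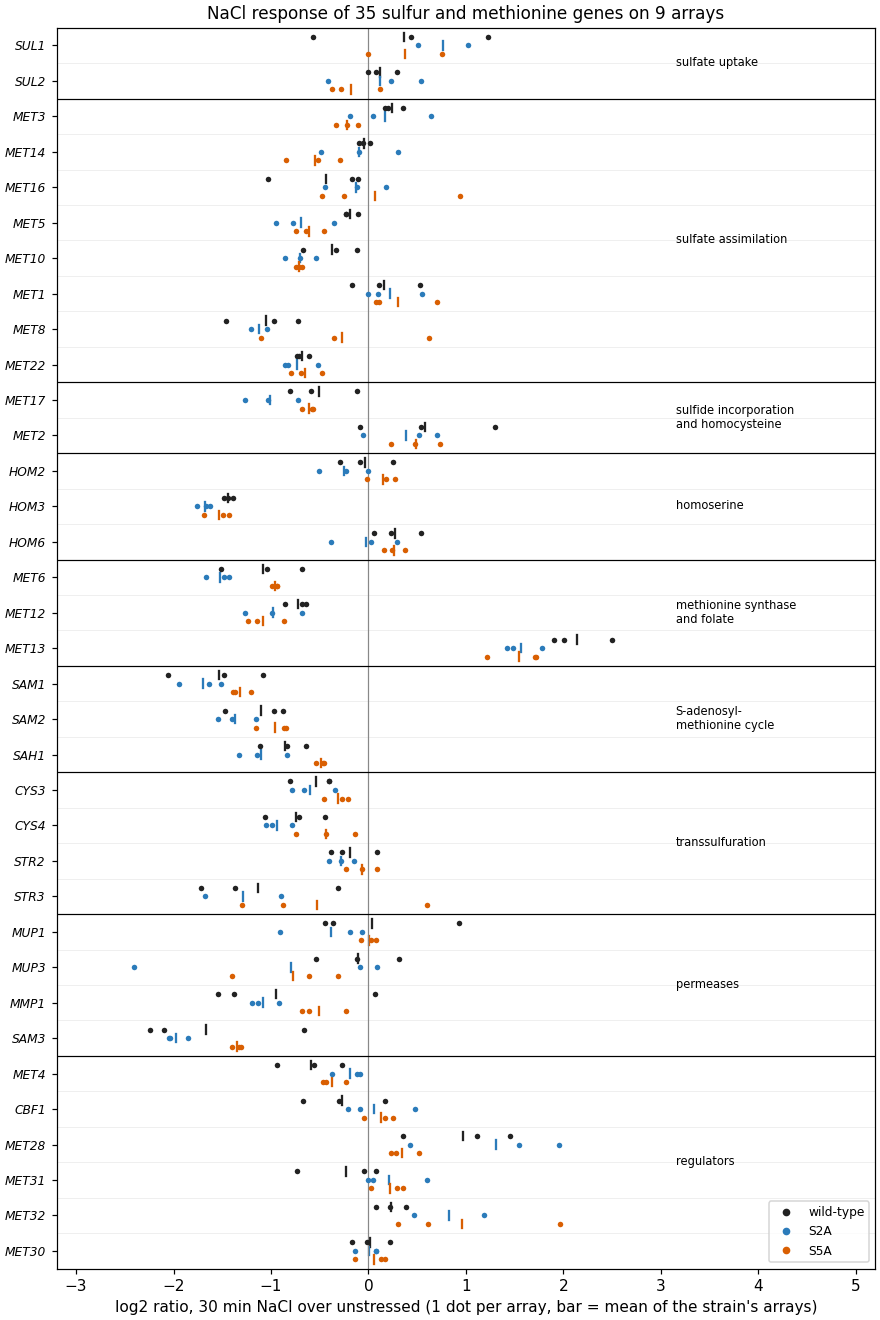
The log2 ratio of salt-treated over unstressed cells (x axis) is plotted for each of the 35 genes (rows, grouped by role) with 1 dot per array and a bar at the mean of the strain's arrays. MET13 has the highest mean of the 31 genes with complete values in every strain (2.13, 1.56 and 1.55), with MET28 overlapping it in S2A and MET32 replicate 1 above it in S5A, and SAM3, HOM3, SAM1 and MET6 lie to the left of 0 on all 9 arrays.

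By the Benjamini-Hochberg p-values no response was called for the sulfate permease genes or for MET3, and the arrays of SUL1 were widely spread. SUL1 and SUL2 encode the sulfate permeases. The log2 ratio of SUL1 was 1.22, 0.43 and -0.57 on the wild-type arrays, 0.51 and 1.03 on S2A replicates 2 and 3, and 0.76 and 0.00 on S5A replicates 2 and 3. That of SUL2 was 0.30, 0.00 and 0.07 in wild-type, 0.54, -0.42 and 0.23 in S2A, and 0.11, -0.37 and -0.29 in S5A. The arrays of both genes lay on either side of 0 and the strains overlapped. SUL2 was not called in any strain, and SUL1, fitted where at least 2 arrays per strain had a value, was not either. MET3 encodes ATP sulfurylase, the first enzyme of assimilation, and its ratio was 0.36, 0.17 and 0.20 in wild-type, 0.05, -0.18 and 0.65 in S2A, and -0.10, -0.22 and -0.33 in S5A. No strain's mean was called for MET3 (adjusted p = 0.144, 0.302 and 0.197 in limma). With Storey's q-value its wild-type and S5A means were called, in opposite directions.

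MET14 encodes the kinase that acts on the product of ATP sulfurylase. Its ratios were close to 0 in wild-type (-0.10, 0.02 and -0.05), spread around 0 in S2A (-0.10, -0.49 and 0.30) and below 0 on each S5A array (-0.29, -0.84 and -0.52). Its fall was called in S5A (adjusted p = 0.00792 in limma), though not without S5A replicate 2 (0.078). MET16, which encodes the next enzyme, PAPS reductase, was not called in any strain and ranged from -1.03 on wild-type replicate 2 to 0.94 on S5A replicate 1.

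Both subunit genes of sulfite reductase fell. MET10 fell in wild-type, S2A and S5A, with means of -0.38 ± 0.28, -0.70 ± 0.16 and -0.71 ± 0.03 and adjusted p-values of 0.0130, 0.000291 and 0.000348 in limma. The wild-type call was lost without wild-type replicate 3 (0.131). MET5 fell in S2A (-0.69 ± 0.31) and S5A (-0.62 ± 0.15), and its wild-type mean was -0.19 ± 0.07 (adjusted p = 0.180 in limma). MET1 and MET8 make siroheme, the cofactor of that enzyme. MET1 was not called in any strain, with means from 0.15 to 0.30. MET8 was -0.97, -0.72 and -1.46 in wild-type, -1.04 and -1.20 on S2A replicates 2 and 3, and 0.62, -0.35 and -1.10 in S5A, and it fell in wild-type (adjusted p = 0.00934) and S2A (0.0182) in limma with at least 2 arrays per strain. MET22, whose phosphatase removes the nucleotide by-product of sulfate reduction and is known to be inhibited by sodium ions, fell evenly, with means of -0.69 ± 0.06 in wild-type, -0.73 ± 0.19 in S2A and -0.65 ± 0.16 in S5A.

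Sulfide is joined to O-acetylhomoserine by the product of MET17. The ratio of MET17 was -0.59, -0.12 and -0.80 in wild-type, -0.73, -1.03 and -1.27 in S2A, and -0.68, -0.58 and -0.57 in S5A, below 0 on every array. It fell in all strains, by 1.42-fold, 2.01-fold and 1.53-fold (adjusted p = 0.00782, 8.85e-05 and 0.00321 in limma), the wild-type call being lost without wild-type replicate 3 (0.0791). MET17 is deleted in BY4741, the background that the methods give for the study's strains in general. The CTD strains were obtained from another laboratory and their genotype at MET17 is not stated. MET17 is the single gene of the 35 that overlaps another annotated gene, YLR302C, so the source of its signal is less certain than for the others. MET2, which makes O-acetylhomoserine, was 0.54, 1.29 and -0.08 in wild-type, 0.52, -0.06 and 0.70 in S2A, and 0.73, 0.48 and 0.23 in S5A. The wild-type rise of MET2 (adjusted p = 0.0393 in limma) rested on single arrays. Omission of replicate 1 (0.0925) or replicate 2 (0.353) of the wild-type ended the call. So did omission of S2A replicate 1 (0.0533) or of S5A replicate 2 (0.0524), and a block for the replicate number (0.0548). With array weights the wild-type estimate went from 0.58 to 0.10 and was not called (adjusted p = 0.59 in limma).

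The branch from aspartate to homoserine moved at 1 step. HOM3 encodes aspartate kinase, which commits aspartate to threonine and methionine synthesis. Its ratio was -1.44, -1.48 and -1.39 in wild-type, -1.63, -1.66 and -1.75 in S2A, and -1.49, -1.69 and -1.43 in S5A. These were among the least variable values of the set, and HOM3 had the lowest adjusted p of the 31 genes in wild-type (2.82e-07) and S2A (1.24e-07). The genes of the next enzymes, HOM2 (aspartate semialdehyde dehydrogenase) and HOM6 (homoserine dehydrogenase), were called in no strain, with means from -0.25 to 0.27. Within each array HOM2 was above HOM3 by 1.10 to 1.70 and HOM6 was above HOM3 by 1.37 to 2.02, so the order was the same on all 9 arrays.

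The 3 genes of the methylation step split. MET6 encodes methionine synthase, and its ratio was -1.04, -0.69 and -1.51 in wild-type, -1.44, -1.49 and -1.66 in S2A, and -0.94, -0.94 and -0.99 in S5A. It fell in all strains. MET12 and MET13 encode 2 forms of methylenetetrahydrofolate reductase, which supplies the methyl group, and Met13 is known as the main one in growing cells. MET13 was 2.01, 2.50 and 1.90 in wild-type, 1.78, 1.42 and 1.49 in S2A, and 1.72, 1.22 and 1.71 in S5A, the highest of the 31 genes in every strain. This was a rise of 4.39-fold in wild-type, 2.96-fold in S2A and 2.93-fold in S5A (adjusted p = 4.84e-07, 4.52e-06 and 9.76e-06 in limma). MET12 went the other way, at -0.64, -0.69 and -0.85 in wild-type, -0.99, -1.27 and -0.68 in S2A, and -1.24, -0.87 and -1.14 in S5A, and fell in all strains. Within an array MET13 exceeded MET12 by 2.09 to 3.19 on the log2 scale.

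The 3 genes of the S-adenosylmethionine cycle fell in every strain. SAM1 and SAM2 encode the 2 S-adenosylmethionine synthetases. SAM1 was -1.08, -1.48 and -2.06 in wild-type, -1.52, -1.64 and -1.94 in S2A, and -1.38, -1.21 and -1.37 in S5A. SAM2 was -0.96, -0.88 and -1.47 in wild-type, -1.16, -1.40 and -1.54 in S2A, and -0.85, -0.86 and -1.15 in S5A. SAM1 was the lower of the pair on all 9 arrays, by a log2 difference of -0.60 to -0.11. The adjusted p-values of the pair lay between 5.51e-06 and 0.000133 in limma. SAH1, which hydrolyses the S-adenosylhomocysteine left after methyl transfer, was -0.64, -0.83 and -1.11 in wild-type, -0.84, -1.14 and -1.33 in S2A, and -0.47, -0.46 and -0.54 in S5A, where each S5A array was above every array of the other strains.

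Of the transsulfuration genes, those that lead from homocysteine to cysteine fell. CYS4 (cystathionine beta-synthase) had means of -0.74 ± 0.30 in wild-type, -0.94 ± 0.14 in S2A and -0.44 ± 0.30 in S5A. CYS3 (cystathionine gamma-lyase) had means of -0.54 ± 0.23, -0.60 ± 0.23 and -0.31 ± 0.13. Both were called in every strain. In S5A the call of CYS4 (adjusted p = 0.0185 in limma) was lost without S5A replicate 2 (0.0680) or replicate 3 (0.157), and that of CYS3 (0.0408) without S5A replicate 1 (0.0922), 2 (0.0747) or 3 (0.207) or S2A replicate 3 (0.0532). STR2 and STR3 act in the reverse direction, from cysteine to homocysteine. STR2 was between -0.40 and 0.09 on all arrays and its fall in S2A (adjusted p = 0.0491 in limma) was lost under 10 of 16 other settings, among them the omission of any S2A or S5A array or of wild-type replicate 3, which gave adjusted p-values of 0.0576 to 0.214. STR3 was -1.36, -0.31 and -1.72 in wild-type, -1.68 and -0.90 on S2A replicates 2 and 3, and 0.60, -0.87 and -1.30 in S5A, and fell in wild-type (adjusted p = 0.0254) and S2A (0.0348) in limma with at least 2 arrays per strain.

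The permease genes were the most uneven group. SAM3 encodes the S-adenosylmethionine permease and had the lowest wild-type mean of the 31 genes. Its ratio was -2.10, -0.67 and -2.24 in wild-type, -2.04, -2.04 and -1.86 in S2A, and -1.30, -1.33 and -1.40 in S5A, with wild-type replicate 2 apart from the other wild-type arrays. MMP1 encodes the S-methylmethionine permease and was -1.54, 0.06 and -1.38 in wild-type, -0.92, -1.13 and -1.20 in S2A, and -0.23, -0.61 and -0.68 in S5A. SAM3 fell in all strains and MMP1 in wild-type and S2A, where the wild-type call of MMP1 (adjusted p = 0.00580 in limma) was lost without wild-type replicate 1 (0.0569) or 3 (0.0562). The methionine permease genes MUP1 (high affinity) and MUP3 (low affinity) were called in no strain. MUP1 was 0.93 on wild-type replicate 2 and at most 0.08 on the other 8 arrays, and MUP3 was -2.40 on S2A replicate 2 against 0.09 and -0.09 on the other S2A arrays.

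Among the 6 regulator genes MET28 was called higher, and MET32 in the fit with at least 2 arrays per strain. MET28 encodes a leucine zipper protein that stabilises the Met4 complex on DNA. Its ratio was 1.45, 0.36 and 1.11 in wild-type, 1.96, 0.43 and 1.55 in S2A, and 0.51, 0.23 and 0.29 in S5A. It rose in wild-type by 1.96-fold (adjusted p = 0.00681 in limma, 0.0592 without wild-type replicate 1) and in S2A by 2.48-fold (0.00114), and its S5A mean of 0.34 ± 0.15 was not called (0.270). Replicate 2 was the lowest of the arrays in each strain.

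MET4 encodes the activator itself and was -0.27, -0.94 and -0.56 in wild-type, -0.09, -0.37 and -0.12 in S2A, and -0.23, -0.47 and -0.44 in S5A. It fell in wild-type (adjusted p = 0.00187 in limma) and in S5A (0.0249), the S5A call being lost without S5A replicate 2 (0.122) or 3 (0.106). Its DNA-binding partners were not called among the genes with complete values. CBF1 was 0.17, -0.67 and -0.30 in wild-type, 0.48, -0.21 and -0.09 in S2A, and 0.25, -0.05 and 0.17 in S5A. MET31 was 0.08, -0.73 and -0.05 in wild-type, 0.05, -0.01 and 0.60 in S2A, and 0.29, 0.03 and 0.36 in S5A. For both genes the strains overlapped and wild-type replicate 2 was the lowest of all 9 arrays. MET32, the close relative of MET31, was 0.08, 0.22 and 0.39 in wild-type and 0.47 and 1.19 on S2A replicates 2 and 3. In S5A it was 1.97, 0.31 and 0.61, a rise in limma with at least 2 arrays per strain (adjusted p = 0.0182). How far that call rests on S5A replicate 1, the highest array, was not tested. MET30, whose product marks Met4 with ubiquitin, stayed near 0, at 0.22, -0.01 and -0.17 in wild-type, 0.07, -0.14 and 0.08 in S2A, and 0.17, -0.14 and 0.12 in S5A.

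None of the 31 genes was called different between strains in the main limma fit, which ignores the replicate number, or with Storey's q-value. With the replicate number as a block, SAH1 was called for S5A minus S2A (adjusted p = 0.0241 in limma). Calls under other settings are given in the last paragraph. The question asked of the mutants was whether changing serine 2 or serine 5 of the CTD altered the NaCl response. For S5A minus wild-type 7.95% of all features were called and 0 of 31 genes, with 5 genes and 31.6% of features below an unadjusted p of 0.05. For S2A minus wild-type 0% of features and 0 genes were called, with 4 genes and 8.49% of features below the unadjusted level. For S5A minus S2A 3.31% of features and 0 genes were called, with 4 genes and 27.3% of features below the unadjusted level. Both comparisons with wild-type share the wild-type arrays.

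The intervals of the differences were wide. The 95% confidence interval of S5A minus wild-type ran from -1.04 to -0.13 for MET13, with an estimate of -0.59 (adjusted p = 0.0800 in limma, the lowest of the set), and the S5A arrays did not overlap the wild-type arrays. S2A differed from wild-type for MET13 by a like amount, -0.57 (interval -1.02 to -0.12, adjusted p = 0.569). Differences below an unadjusted p of 0.05 were also seen for MET14 (-0.51), MET3 (-0.46), MET5 (-0.43) and SAH1 (0.37) in S5A minus wild-type. For MET5 the S2A minus wild-type difference was -0.50 (interval -0.88 to -0.13), and MET17 (-0.50) and MET6 (-0.45) were also below that level. The wild-type arrays of MET5, at -0.23, -0.10 and -0.23, were above every array of both mutants, which lay between -0.95 and -0.35. The widest interval was that of MUP3, from -1.94 to 0.61, and the narrowest was that of HOM3, from -0.38 to 0.18. Quantile normalization moved the S5A minus wild-type difference of HOM3 from -0.10 to -0.71, which was called (adjusted p = 0.0208), and that of MET13 to -0.15, where scaling to one spread gave -0.18.

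**Figure D2:**
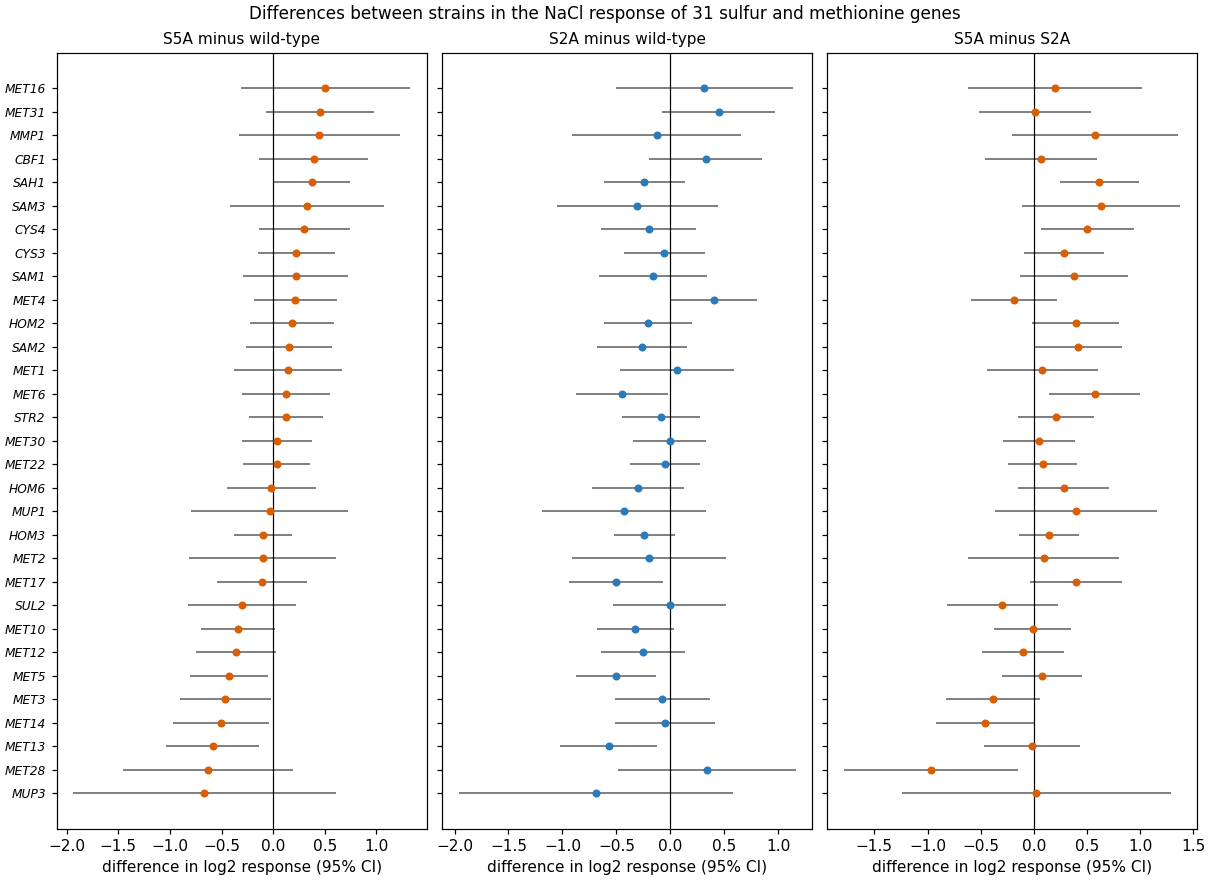
The difference in log2 response between strains (x axis, dot with its 95% confidence interval) is plotted for the 31 genes with complete values, in the order of S5A minus wild-type. Intervals that leave out 0 are few, and in the left panel they include those of MET13 (-1.04 to -0.13) and MET5 (-0.80 to -0.05).

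Between the mutants the lowest adjusted p was that of SAH1, 0.62 higher in S5A than in S2A (interval 0.24 to 0.99, adjusted p = 0.050 in limma, above the threshold). The SAH1 difference was called with a block for the replicate number (0.0241) and with array weights (0.0178). MET6 (0.57), CYS4 (0.50) and MET28 (-0.97) were below an unadjusted p of 0.05. Of the 31 differences, 23 were positive for S5A minus S2A and 25 negative for S2A minus wild-type, with medians of 0.09 and -0.20. Over all 5645 features 2853 were positive and 2759 negative in the same comparisons, with medians of 0.005 and 0.007. S2A replicate 2 was the array with the lowest median of these genes (-0.78). The part of that array in these counts was not tested.

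Of the 14 genes that fell in wild-type, 10 had a less negative mean in S5A (71.4%, where 76.9% of the 2160 features that fell did) and 1 had one in S2A (7.14%, where 58.0% did). The exception in S2A was MET4. The median of these 14 genes was -0.80 in wild-type, -1.05 in S2A and -0.68 in S5A. The genes were picked here on their wild-type values, so these shares are a description. Over all features the spread of each array (scaled median absolute deviation) was 0.70 to 0.80 in S5A and 0.83 to 1.015 in wild-type. The part of this spread in the shares was not tested. The plot of S5A against wild-type means shows where the genes lie among all features.

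**Figure D3:**
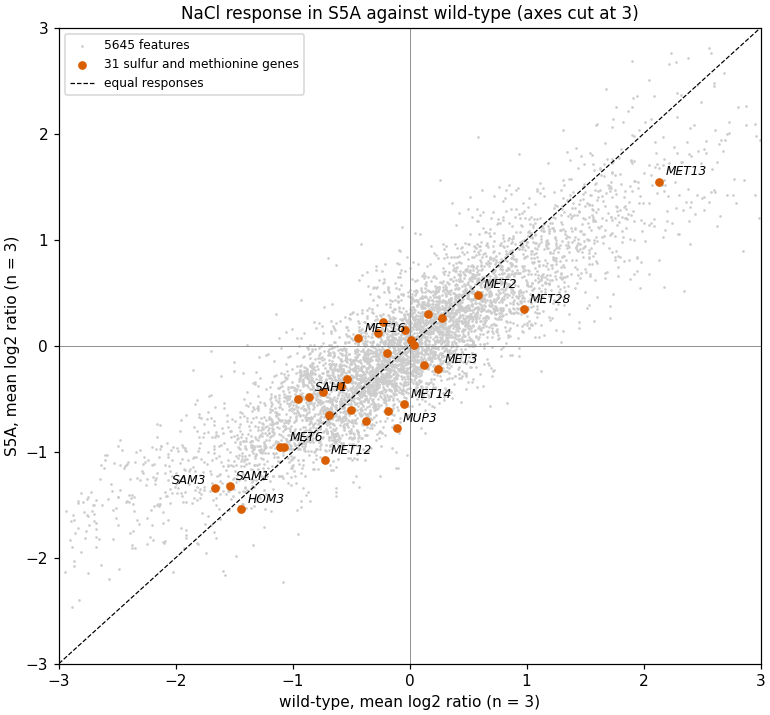
The mean log2 ratio in S5A (y axis) is plotted against that in wild-type (x axis), each over 3 arrays, for 5645 features (grey) and 31 sulfur and methionine genes (orange), with axes limited to -3 to 3 and a dashed line of equal responses. MET13 (2.13 in wild-type, 1.55 in S5A) and MET28 (0.97 and 0.34) lie under the line, and SAM3 (-1.67 and -1.34) and SAH1 (-0.86 and -0.49) lie above it.

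The size of the S5A difference at the permease genes SAM3 and MMP1 depended on wild-type replicate 2. With all arrays S5A minus wild-type was 0.32 for SAM3 and 0.45 for MMP1, neither called (adjusted p = 0.546 and 0.413 in limma), and quantile normalization turned the difference of SAM3 to -0.27. Without that array the differences were 0.83 and 0.96, and both were called (0.0184 and 0.0201). SAM3 was then also called between S5A and S2A (0.63, adjusted p = 0.0190), where the estimate is the same and the spread is smaller. For the other permease genes, MUP1 and MUP3, S5A minus wild-type was -0.03 and -0.665 with all arrays, neither called. Their differences without wild-type replicate 2 were not followed. SAM3 and MMP1 each lie beside the gene of an enzyme that uses what the permease brings in. SAM4, next to SAM3, transfers a methyl group from S-adenosylmethionine to homocysteine, and its ratio was -1.0, -1.21 and -1.26 in wild-type, -0.95, -1.16 and -0.90 in S2A, and -0.47, -0.57 and -0.40 in S5A. Wild-type replicate 2 did not stand apart for SAM4, and its S5A minus wild-type difference of 0.67 was called (adjusted p = 0.0130). That call was lost at 0.025 without wild-type replicate 2 (0.0336) or 3 (0.0549) or any 1 of the S5A arrays (0.0320 to 0.0551), and also under quantile normalization (0.0482), scaling to one spread (0.0381) and a fit of only the arrays compared (0.0276). MHT1, next to MMP1, does the same with S-methylmethionine, and was -1.15, -0.10 and -1.17 in wild-type, -1.28 and -0.14 on S2A replicates 2 and 3, and 0.16, -0.95 and -1.32 in S5A.

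**Figure D4:**
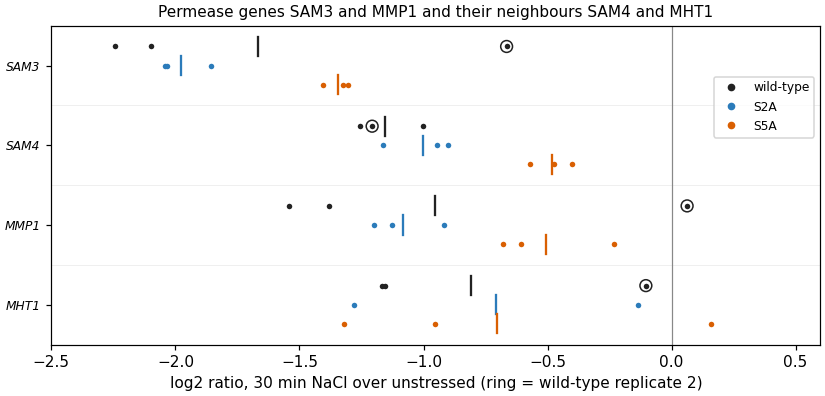
The log2 ratio (x axis) of the permease genes SAM3 and MMP1 and of their neighbours SAM4 and MHT1 is plotted with 1 dot per array, a bar at the strain mean and a ring around wild-type replicate 2. That array is the highest of the wild-type arrays for SAM3 (-0.67), MMP1 (0.06) and MHT1 (-0.10), but lies within the wild-type range for SAM4 (-1.21).

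Of 44 other genes around the pathway, 41 had complete values. In wild-type 9 rose and 22 fell. S2A had 8 rises and 25 falls, and S5A had 4 rises and 21 falls. Over all features 32.3%, 31.6% and 28.9% rose and 38.3%, 37.1% and 34.2% fell in wild-type, S2A and S5A. The folate one-carbon genes fell most uniformly, 6, 7 and 6 of 7 in the 3 strains, with ADE3, the cytoplasmic trifunctional enzyme, at -1.40 ± 0.31 in wild-type. Of 12 genes of methionine salvage, transamination and polyamines 9, 9 and 8 fell. The aromatic transaminase gene ARO9 rose by 4.05 ± 0.56 in wild-type, 3.55 ± 0.45 in S2A and 3.18 ± 0.21 in S5A. Among 6 other uptake and use genes, 4, 3 and 1 rose in wild-type, S2A and S5A, and 2 fell in each strain. The rises included that of SOA1, a transporter of sulfonates and other sulfur compounds. SOA1 means were 2.01 ± 0.61 in wild-type, 2.28 ± 0.77 in S2A and 0.98 ± 0.31 in S5A. The S5A difference was -1.025 from wild-type and -1.298 from S2A, neither called (adjusted p = 0.102 and 0.0659 in limma). The falls included that of IRC7, a cysteine desulfhydrase (-2.48 ± 0.59 in wild-type).

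In wild-type 32.3% of all features rose and 38.3% fell. Of 8 glutathione genes 1 rose and 3 (37.5%) fell in wild-type, and the glutathione transporter gene OPT1 fell, with a mean of -1.91 ± 0.18. Of 4 further subunits of the ligase that contains Met30, 2 rose in wild-type and S2A and 1 in S5A. Over all features 31.6% rose in S2A and 28.9% in S5A. HRT1, the RING subunit of that ligase, was at 0.84 ± 0.20 in wild-type. Of 4 thioredoxin system genes 1 rose and 2 fell in wild-type, and the reductase gene TRR1 was at -1.03 ± 0.13. Between strains 2 of the 41 genes were called, both in S5A minus wild-type, a share of genes below the 7.95% of all features called there. These were SAM4 and ECM38, the gamma-glutamyltransferase that breaks down glutathione. ECM38 was -0.48, 0.11 and -0.40 in wild-type, -1.32, -0.76 and -0.54 in S2A, and -1.15, -1.24 and -1.30 in S5A, a difference of -0.97 (adjusted p = 0.0187 in limma). This call was lost at 0.025 without S2A replicate 2 (0.0280), without wild-type replicate 2 (0.0525) or 3 (0.0470), and without any 1 of the S5A arrays (0.0516 to 0.0608), as well as with features that had at least 2 arrays per strain (0.0282).

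**Figure D5:**
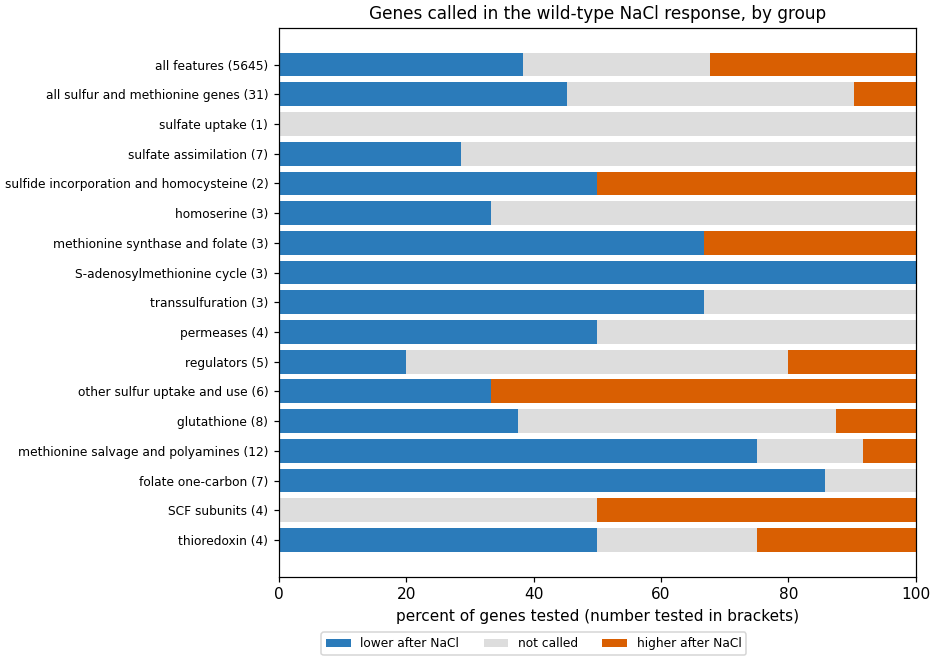
The percent of tested genes (x axis) that were lower, not called or higher after NaCl in wild-type is shown for all 5645 features, the 31 sulfur and methionine genes, their 9 groups by role and the 6 lists around the pathway, with the number tested in brackets. All 3 genes of the S-adenosylmethionine cycle and 6 of 7 folate one-carbon genes fell, where 38.3% of all features did.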

How the data were processed

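RNA from each culture was labelled as cDNA and hybridised to 2-colour tiled NimbleGen arrays, and NaCl-treated cells always carried the same dye. A dye effect common to all strains would therefore be removed from a difference between strains, but would remain in the response of each. The authors deposited normalized log2 ratios per feature. The genome build and strand-specificity are not given in the sources used here. Missing features numbered 156 to 1163 per array, and array medians lay between -0.00135 and -0.00011. The number of arrays limits the precision.

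One mean per strain was fitted in limma 3.58.1 (R 4.3.3; lmFit, contrasts, eBayes) to the 5645 of 6868 features with a value on all arrays, two-sided, with Benjamini-Hochberg adjustment. The levels of 0.05 for a response and 0.025 for a strain difference are those of the methods, which applied them to Storey's q-value. Here they were applied to Benjamini-Hochberg p-values, with the q-value as an alternative. SUL1, MET8, STR3 and MET32 were fitted only in the alternative that required 2 arrays per strain. Symbols and neighbouring genes came from the RefSeq annotation of the yeast genome, which named 5984 features.

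The members and the lists around the pathway were chosen with earlier results of these data known. Values on every array are given by a rule for the regulators, SUL1, SUL2, MET17, SAM1, SAM2 and the called genes with the 5 lowest and the highest wild-type responses, of which 3 rose. MET3, MET14, MET5, MET8, MET12, SAH1, STR3, MMP1, MHT1 and the genes called in the lists were added after their values were seen. In the wider lists 1 called gene with the largest change was named per list, and SOA1 was added to IRC7.

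Deviations from the strain means of arrays with the same replicate number correlated across features at 0.166 to 0.231 for wild-type and S5A and at 0.149 to 0.388 for wild-type and S2A, so these arrays were treated as paired in the fit with the replicate number as a block. For S2A and S5A the values were 0.0616 to 0.129. Arrays with different numbers correlated at -0.318 to 0.102 over all pairs of strains, and at -0.127 to 0.038 for S2A and S5A. Deviations cancel within a strain, so positive values for the same number push the others down. The values for different numbers are therefore not separate evidence of pairing. The main fit had no block, although the paper describes these strains as paired. Alternatives tried were quantile normalization, a common spread for all arrays, centring on each array's median, at least 2 arrays per strain, the block, array weights, Storey's q-value with lambda 0.5, only the arrays of the strains compared, and omission of single arrays. Single-channel intensities were not used here.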

Additional observations from a re-analysis of the deposited data

Results flagged for a closer look

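MET3 was above 0 on every wild-type array and below 0 on every S5A array, with an S5A minus wild-type difference of -0.46. The difference was not called in limma (adjusted p = 0.143).

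The S5A minus wild-type difference was called in limma for SAM4 (0.67, adjusted p = 0.0130) and ECM38 (-0.97, adjusted p = 0.0187), both in the same direction on all 3 S5A arrays. CDC53, the cullin of the ligase that contains Met30, was 0.50, 0.24 and 0.30 in wild-type, 0.63, 0.37 and 0.28 in S2A, and -0.17, -0.20 and -0.07 in S5A. Its arrays lay on opposite sides of 0 in S5A and the other strains, with differences of -0.49 from wild-type and -0.57 from S2A, which did not reach 0.025 in limma (adjusted p = 0.0448 and 0.0383).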

How the results depend on the processing

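The counts of called responses stayed within 1.5 times of 17, 17 and 16 genes in wild-type, S2A and S5A under all 16 alternatives, with 14 to 18, 16 to 19 and 12 to 18 when each array was left out in turn and 24, 23 and 22 with Storey's q-value. The 50 called responses gave 800 values over these settings, of which 770 kept their direction and side of the threshold, 30 fell short of it and 0 reversed. With the q-value the added wild-type calls were rises of HOM6 and MET3 and falls of MET16, STR2, CBF1, MET5 and MET31. In S2A they were rises of MET1 and MET2 and falls of MUP3, HOM2, MUP1 and MET4. In S5A they were rises of MET2, HOM6 and MET1 and falls of MMP1, MUP3 and MET3. Responses not called at first were otherwise followed only in the counts. S2A minus wild-type had 0 called genes under every alternative. S5A minus wild-type had 1 under quantile normalization (HOM3, -0.71), 3 with array weights (SAH1, SAM3 and MMP1, 0.53, 0.76 and 0.73) and 0 to 2 when arrays were left out. S5A minus S2A had 1 with the replicate block (SAH1, adjusted p = 0.0241), 1 with array weights (SAH1, 0.0178) and 0 to 1 when arrays were left out. The block changed no other member's strain difference, and of the responses it lost MET2. Quantile normalization turned the S5A minus wild-type difference of SAM3 to -0.27. Over all features the count for S5A minus wild-type went from 449 to 165 under quantile normalization, 170 under scaling, 762 with the block, 1284 with array weights and 789 with Storey's q-value. The cause of these shifts was not tested.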
